A study of Mus musculus with 3 samples.

Results

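Fos, Fosb, Jun, Junb, Jund, Atf3, Egr1, Ier2, Btg2 and Nr4a1 are genes of the immediate-early response, and this set was chosen by gene name, with earlier results of these data known. These are 10 of the 32285 genes in the count tables, and each had UMIs in all 3 libraries. Glomeruli were isolated from mouse kidneys after digestion with collagenase V, and their cells were captured in droplets. A unique molecular identifier (UMI) marks each captured RNA molecule, so a value counts molecules, and levels of different genes are compared as molecules, without division by gene length. The libraries were 1 from control mice labelled Control Blank, 1 from the MRL/lpr mice of the Model Group, and 1 from treated MRL/lpr animals. The treatment was hUC-MSCs, mesenchymal stem cells taken from human umbilical cord.

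MRL/lpr mice carry the lpr mutation of Fas and develop a lupus-like nephritis. They entered the model group at about 16 weeks of age, once urine protein had risen. The treated mice received 800000 hUC-MSCs by tail vein, and both MRL/lpr libraries are from day 21. The sources used here do not give the strain of the control animals in this experiment, or how many animals were pooled for a library. With 1 library in each group there is no replicate, so no test was made, and every interval below is a 95% interval that covers counting error only. A difference between libraries cannot be told apart from a difference between animals, digestions or captures.

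Immediate-early genes are transcribed within minutes of a stimulus without new protein synthesis, from promoters bound by factors such as SRF and CREB that MAP kinases switch on. Fos and Jun proteins pair to form AP-1, a transcription factor that in turn activates cytokine, matrix and growth genes. In the kidney these genes are known to respond to injury and cytokines, and they are also known to rise while tissue is digested into single cells. No sample of undigested tissue was measured here, so the part of digestion in any level below was not tested.

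The promoters of 4 of the genes are shown because they hold letters that match the cyclic AMP response element, which CREB is known to bind. RefSeq windows on GRCm38.p6, from 250 bases before to 50 after the start of transcription, were found for 8 of the 10 genes, all but Egr1 and Ier2. Capitals mark TGACG or its complement CGTCA, the core of a cyclic AMP response element, and in Btg2 the whole element TGACGTCA, which contains the core. Fos (chr12:85473640-85473939, plus strand), Junb (chr8:84978699-84978998, minus strand), Btg2 (chr1:134079106-134079405, minus strand) and Nr4a1 (chr15:101266596-101266895, plus strand) read as follows.
Fos: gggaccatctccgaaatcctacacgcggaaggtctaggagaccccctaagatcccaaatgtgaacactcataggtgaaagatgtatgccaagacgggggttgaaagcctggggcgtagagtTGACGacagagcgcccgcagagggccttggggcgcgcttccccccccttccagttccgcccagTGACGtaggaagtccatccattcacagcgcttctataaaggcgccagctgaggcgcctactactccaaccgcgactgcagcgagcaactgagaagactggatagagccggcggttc
Junb: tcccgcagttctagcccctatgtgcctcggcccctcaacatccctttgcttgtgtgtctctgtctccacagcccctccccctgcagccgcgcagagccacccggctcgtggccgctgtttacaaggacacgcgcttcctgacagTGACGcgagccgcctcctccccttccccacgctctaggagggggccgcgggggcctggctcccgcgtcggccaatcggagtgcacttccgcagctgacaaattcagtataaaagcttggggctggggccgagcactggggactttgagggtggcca
Btg2: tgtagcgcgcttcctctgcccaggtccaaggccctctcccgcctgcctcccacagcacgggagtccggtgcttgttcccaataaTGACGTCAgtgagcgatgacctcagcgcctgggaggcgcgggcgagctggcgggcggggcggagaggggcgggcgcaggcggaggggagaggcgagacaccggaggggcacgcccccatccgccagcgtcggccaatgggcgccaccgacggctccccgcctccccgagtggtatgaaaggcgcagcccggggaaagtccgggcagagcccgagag
Nr4a1: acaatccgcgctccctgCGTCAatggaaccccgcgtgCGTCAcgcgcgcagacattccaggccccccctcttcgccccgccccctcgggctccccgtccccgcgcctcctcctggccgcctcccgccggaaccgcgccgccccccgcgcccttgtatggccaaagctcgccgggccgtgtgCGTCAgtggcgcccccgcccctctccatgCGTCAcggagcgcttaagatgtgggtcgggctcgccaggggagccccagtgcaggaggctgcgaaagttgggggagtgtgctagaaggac
The core was in 6 of the 8 windows, those of Fos, Fosb, Junb, Atf3, Btg2 and Nr4a1, against 20.8% of all 32851 windows. Nr4a1 held it at 4 places. The whole element was in Btg2 alone of the 8, against 1.79% of all windows. An EGR site, GCGTGGGCG or GCGGGGGCG on either strand, was in Fosb and Nr4a1, against 3.47%. A TATAAA, searched on the plus strand of each gene only, was in Fos and Junb, against 8.32%. From the start of transcription in RefSeq it began at -33 in Fos and at 0 in Junb. GENCODE places the start of Junb further downstream, at 84978718, so the position in Junb depends on the annotation. Neither the AP-1 site TGACTCA or TGAGTCA nor the CArG box that SRF binds was in any of the 8 windows, and these were in 5.20% and 1.63% of all windows. These are matches of letters within short windows and say nothing of whether a factor was bound.

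The libraries held 94903163 UMIs in control, 103319588 in MRL/lpr and 90812138 in MRL/lpr hUC-MSC mice. Barcodes with at least 1000 UMIs and at most 10% mitochondrial UMIs numbered 11018, 14109 and 16586, with medians of 5069, 3716 and 2727 UMIs. Pairs of libraries shared 35 to 61 of these barcodes, against 22.9 to 34.4 if barcodes had been drawn independently. Barcodes were given a class, called by its name with "-like", from 92 markers of 14 classes, none of them one of the 10 genes. In each library at least 7 of the 8 endothelial markers, all 6 mesangial markers and all 8 podocyte markers were highest in their own class. Of T cell markers 6 of 7 were in MRL/lpr and in treated mice, and of NK cell markers 5 of 6 in MRL/lpr mice. The classes were made from these same markers, so this is no separate check of them. No class was given to 6.34% of barcodes in control, 22.4% in MRL/lpr and 39.8% in treated mice, because their markers did not stand out from free RNA, or in a further 1.24% to 3.85% because markers of more than 1 class did.

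Endothelial-like and mesangial-like cells, the main resident cells of the glomerulus with podocytes, had the highest levels in control and untreated MRL/lpr mice. The 10 genes together made up 3.56% of all UMIs of endothelial-like cells in control mice, 3.16% in MRL/lpr mice and 1.15% in treated mice. In UMIs for each 1000000 UMIs of the class (CPM), that is 35622 (35552 to 35692) in 5375 control cells, 31617 (31536 to 31697) in 3664 MRL/lpr cells and 11526 (11477 to 11576) in 4059 treated cells. Mesangial-like cells held 33414 CPM in 1166 control cells, 28307 CPM in 1810 MRL/lpr cells and 8270 CPM in 1750 treated cells. The treated library was the lowest of the 3 in both classes.

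**Figure D1:**
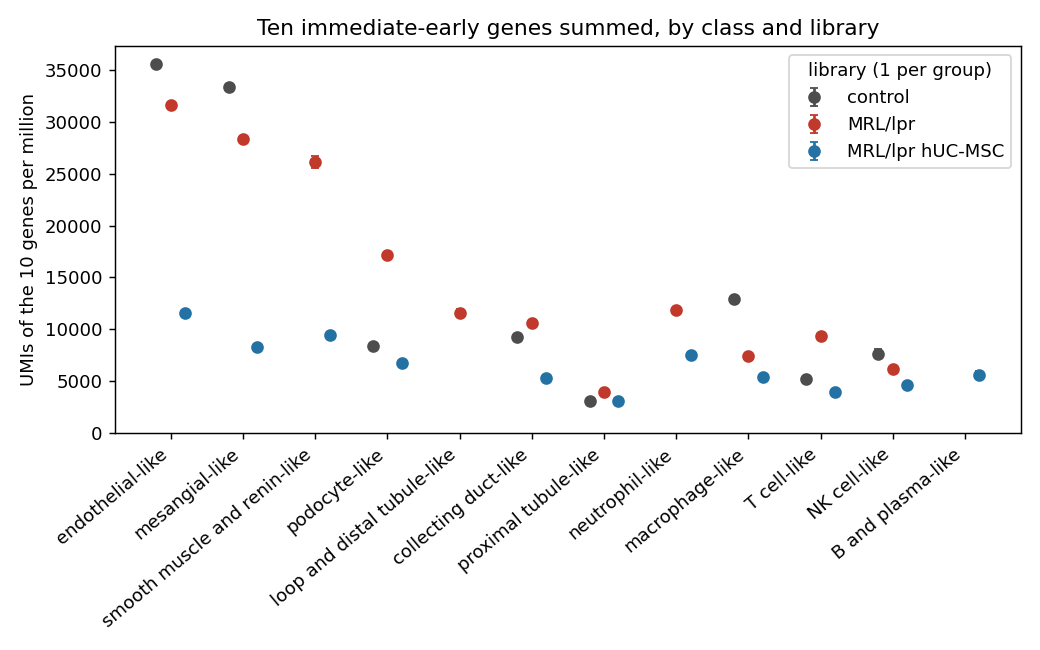
Summed CPM of the 10 genes (y) by class (x) and library (color), with exact Poisson 95% intervals that are mostly smaller than the points; classes with fewer than 50 cells in a library are left out. Endothelial-like cells stand at 35622, 31617 and 11526 CPM in control, MRL/lpr and treated mice, and proximal tubule-like cells stand lowest in every library.

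Other classes followed at lower levels. In control mice the order after endothelial-like and mesangial-like cells was macrophage-like at 12900.5 CPM, collecting duct-like at 9282, podocyte-like at 8425, NK cell-like at 7629, T cell-like at 5164 and proximal tubule-like at 3070, and no neighbours in this order had overlapping intervals. In MRL/lpr mice smooth muscle and renin-like cells, of the wall of arterioles, came next at 26158 CPM in 79 cells, ahead of podocyte-like cells at 17118. Neutrophil-like cells at 11837 and loop and distal tubule-like cells at 11606 followed, and the intervals of this pair overlapped. Collecting duct-like cells at 10571, T cell-like at 9376, macrophage-like at 7445, NK cell-like at 6134 and proximal tubule-like cells at 3951 CPM closed the order. In treated mice the levels lay closer together, from 11526 CPM in endothelial-like to 3111 in proximal tubule-like cells, and B and plasma-like (5576), macrophage-like (5376) and collecting duct-like cells (5283) overlapped with their neighbours. Without any class the libraries stood in the same order as in endothelial-like and mesangial-like cells. Podocyte-like, T cell-like, proximal tubule-like and collecting duct-like cells were instead higher in MRL/lpr than in control mice. Endothelial-like cells made up 48.8% of barcodes used in control, 26.0% in MRL/lpr and 24.5% in treated mice. The part of class make-up in the levels over all barcodes was not tested. Over all barcodes used, the 10 genes stood at 25594 CPM in control, 20994 in MRL/lpr and 8699 in treated mice, and over barcodes without a class at 32942, 17693 and 8736 CPM.

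Free RNA carried these genes too. In droplets with 1 to 100 UMIs, which hold RNA from outside cells, the 10 genes stood at 15188 CPM in control, 13889 in MRL/lpr and 9742 in treated mice. Of classes with at least 50 cells, endothelial-like and mesangial-like cells were above that level in control mice, these with smooth muscle and renin-like and podocyte-like cells in MRL/lpr mice, and endothelial-like cells in treated mice. In control mice 3 smaller classes were above it as well, smooth muscle and renin-like at 20599.9 CPM in 29 cells, loop and distal tubule-like at 17122 CPM in 7 and dendritic-like at 16791 CPM in 4. Barcodes of which at least 90% of UMIs were haemoglobin, red cells that should make none of these genes, had a Fos UMI in 22.7% of 365 barcodes in control, 44.0% of 168 in MRL/lpr and 19.3% of 88 in treated mice, at medians of 5045, 3877.5 and 2880.5 UMIs. The free RNA in endothelial-like cells was estimated from markers of other classes at 4.09% of their UMIs in control, 11.1% in MRL/lpr and 8.10% in treated mice. Levels of classes below the droplet level are given as measured, and the part of free RNA in them was not tested.

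**Figure D2:**
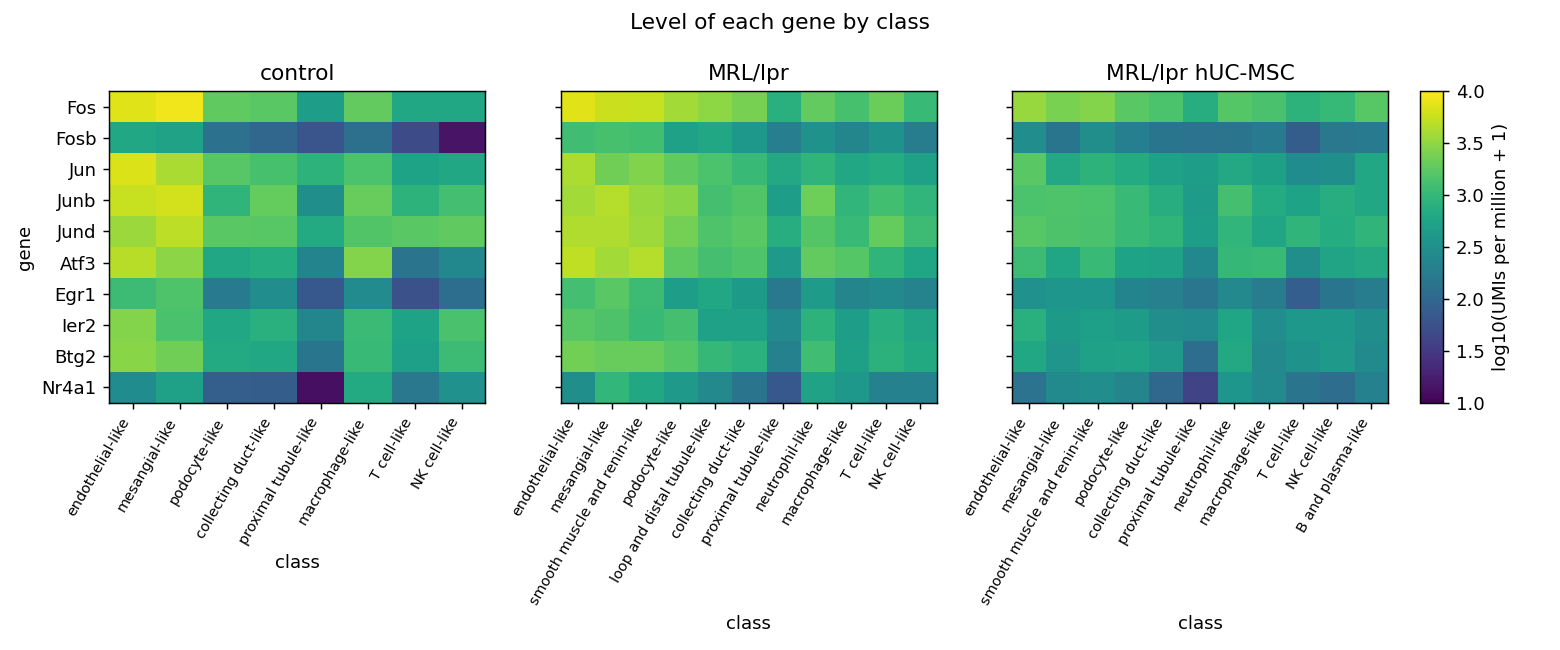
Level of each of the 10 genes (rows) in each class with at least 50 cells (columns) in the 3 libraries (panels), as log10(CPM + 1) in color. Fos is at 7089 CPM in endothelial-like cells of control mice and 3419 CPM in treated mice, and Nr4a1 is at 287 and 138 CPM there.

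Fos, the partner that gives AP-1 most of its inducible activity, was at 7089 CPM in endothelial-like cells of control mice, 7268 CPM in MRL/lpr mice and 3419 CPM in treated mice. In mesangial-like cells it was at 8688, 5806 and 2515 CPM. Control and MRL/lpr mice were close in endothelial-like cells, at a log2 ratio of 0.04 (0.03 to 0.05), and the treated library was low in both classes, at -1.09 and -1.21 against MRL/lpr. After each cell was thinned to 1000 UMIs, 90.7% of endothelial-like cells had a Fos UMI in control, 94.8% in MRL/lpr and 77.5% in treated mice. Before thinning these shares were 95.4%, 97.7% and 87.9%, at class medians of 4347, 3997.5 and 3500 UMIs.

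Fosb, a paralog whose short form can hold AP-1 in a lasting state, was scarcer, at 633 CPM in endothelial-like cells of control mice, 1201 CPM in MRL/lpr mice and 292 CPM in treated mice. It was the member with the highest ratio of MRL/lpr over control in both main classes, at 0.92 in endothelial-like and 1.34 (1.30 to 1.38) in mesangial-like cells, where it was at 532, 1346 and 144 CPM. It was also the member with the lowest ratio of treated over MRL/lpr mice in mesangial-like cells, at -3.22 (-3.29 to -3.15), but with at most 5% ribosomal UMIs it stood at -2.58 and Atf3 at -3.05. The 3 libraries thus stood in the order MRL/lpr, control, treated for Fosb in both classes.

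Jun, the partner that can pair with itself, was highest in control mice, at 6973 CPM in endothelial-like cells against 4280 in MRL/lpr and 1718 in treated mice, and at 4203, 2216 and 646 CPM in mesangial-like cells. Junb, which tempers Jun and drives T cell cytokine genes, was at 5547, 3849 and 1412 CPM in endothelial-like and 6272, 4634 and 1489 CPM in mesangial-like cells, in the same order of libraries. Jund, the least inducible Jun gene, was at 3520, 4363 and 1676 CPM in endothelial-like and at 5050, 4357 and 1437 CPM in mesangial-like cells. All 3 Jun genes were lowest in the treated library. Jund varied least of the 10 between classes in control mice, from 673 CPM in proximal tubule-like to 5050 CPM in mesangial-like cells, whereas Jun ran from 547 CPM in T cell-like to 6973 CPM in endothelial-like cells.

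Atf3, a stress-induced factor of the ATF family that binds cyclic AMP response elements and can repress cytokine genes, was at 4713 CPM in endothelial-like cells of control mice, 5103 CPM in MRL/lpr and 1138 CPM in treated mice. In mesangial-like cells it was at 3017, 3812 and 598 CPM. Its ratio of treated over MRL/lpr was the lowest of the 10 in endothelial-like cells, at -2.16 (-2.19 to -2.14), or -3.05 with a marker gate of 4 times the free RNA, and stood at -2.67 in mesangial-like cells.

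Egr1, a zinc finger factor induced through SRF, was at 1140, 1273 and 329 CPM in endothelial-like cells of control, MRL/lpr and treated mice, and at 1490, 1706 and 381 CPM in mesangial-like cells. Nr4a1, an orphan nuclear receptor known as a mark of recent antigen receptor signalling in T cells, was the scarcest member in endothelial-like cells, at 287, 310 and 138 CPM. Empty droplets held Nr4a1 at 227, 366 and 264 CPM, above the endothelial-like level in MRL/lpr and treated mice. In mesangial-like cells Nr4a1 was at 524, 964 and 264 CPM, and in control mice its highest level among classes of at least 50 cells was in macrophage-like cells, at 686 CPM in 113 cells. In T cell-like cells Nr4a1 was at 156 CPM in control, 207 in MRL/lpr and 143 in treated mice, below its droplet level in each library. The control value rested on 60 UMIs. Nr4a1 stayed within 2-fold there between control and MRL/lpr mice, as did Jun, Junb, Jund, Ier2 and Btg2. Between MRL/lpr and treated mice it stayed within 2-fold with Ier2.

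Ier2, a small nuclear protein of the same response, was at 2808, 1666 and 794 CPM in endothelial-like cells and 1388, 1468 and 427 CPM in mesangial-like cells. Btg2, an antiproliferative gene also induced by p53, was at 2912, 2304 and 611 CPM in endothelial-like and 2252, 1996 and 369 CPM in mesangial-like cells. Both were lowest in the treated library in each class.

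The first comparison the design implies is that of MRL/lpr with control mice. In endothelial-like cells 0 of the 10 genes were 2-fold or more higher and 0 were 2-fold or more lower, where 8.95% and 4.8% of the 13072 genes with at least 50 UMIs were. The members ran from -0.75 for Ier2 to 0.92 for Fosb on the log2 scale, with a median of 0.07 beside 0.02 for all genes. In mesangial-like cells 1 member, Fosb, was 2-fold or more higher and 0 were lower, against 8.49% and 4.59% of 12385 genes. The summed level was lower in MRL/lpr mice by small amounts, at -0.17 in endothelial-like and -0.24 in mesangial-like cells. This direction was held under most other settings but not under all. With a marker gate of 4 in place of 2 times the free RNA, which kept 783 MRL/lpr and 1554 control endothelial-like cells, the ratio was 0.14, and with cells of 200 to 3000 genes the mesangial-like ratio was 0.09.

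In podocyte-like cells, the filtering cells of the glomerulus, 8 of the 10 genes were 2-fold or more higher in MRL/lpr than in control mice, against 8.25% of 11521 genes. The sum was 8425 CPM in 2518 control cells, 17118 CPM in 1041 MRL/lpr cells and 6722 CPM in 235 treated cells, at a log2 ratio of 1.02 (1.01 to 1.03) for MRL/lpr over control. Nr4a1 went from 79.6 CPM in control to 416 CPM in MRL/lpr mice and stood at 231 CPM in treated mice. Junb was at 923, 2946 and 1052 CPM, and Fos at 1830, 3829 and 1715 CPM. Jun, at 1665 CPM in control and 1854 CPM in MRL/lpr mice, and Jund, at 1696 and 2353 CPM, were the 2 members within 2-fold.

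Podocyte-like cells of control mice were unevenly high. At most 0.5% of UMIs came from the 10 genes in 64.5% of them and over 1.5% in 15.9%, whereas in MRL/lpr mice these shares were 15.2% and 53.8%. Endothelial markers, 8 genes summed, were at 115 CPM in the low and 899 CPM in the high control cells, and podocyte markers at 21988 and 16477 CPM, with mesangial markers at 74.0 and 136 CPM. In MRL/lpr mice endothelial markers were at 237 and 650 CPM in the low and high cells. Endothelial-like cells themselves held 9464 CPM of these markers in control mice, and empty droplets 2692 CPM. Markers of another class thus moved with the level of the 10 genes within podocyte-like cells, and their part in the difference between libraries was not tested.

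In T cell-like cells 4 of the 10 genes were 2-fold or more higher in MRL/lpr mice, against 12.3% of 6053 genes. Fos was at 627 CPM in 100 control cells, 2137 CPM in 825 MRL/lpr cells and 875 CPM in 616 treated cells. Atf3 was at 143, 908 and 300 CPM, while Jund, at 1687, 1957 and 917 CPM, was within 2-fold between control and MRL/lpr mice. The 4 were Fos, Fosb, Atf3 and Egr1. In control mice Fosb rested on 18 UMIs and Egr1 on 21, against 675 and 549 in MRL/lpr mice. Both thus passed the limit on UMIs only through the MRL/lpr library. The summed level was below that of empty droplets in all 3 libraries.

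Macrophage-like cells went the other way, from 12900.5 CPM in 113 control cells to 7445 CPM in 1175 MRL/lpr cells and 5376 CPM in 1200 treated cells. There 4 members, Jun, Junb, Ier2 and Btg2, were 2-fold or more lower in MRL/lpr than in control mice, against 10.4% of 8964 genes, and 0 were higher, against 14.9%. The macrophage markers themselves, summed, were at 3100 CPM in control and 10552 CPM in MRL/lpr mice, so the 2 sets of cells differed in the markers that define them. In collecting duct-like cells 2 members, Fosb and Atf3, were 2-fold or more higher, against 6.38% of 7559 genes. In proximal tubule-like cells, which reabsorb the filtrate, 3 members, Fosb, Egr1 and Nr4a1, were 2-fold or more higher, against 16.6% of 7950 genes, and these rested on 34, 37 and 7 UMIs in 58 control cells, so that all 3 passed the limit of 50 UMIs only through the MRL/lpr library. In NK cell-like cells Atf3 and Fosb were higher, against 7.26% of 1405 genes, and Ier2 was lower, against 10.3%. Atf3 had 38 UMIs and Fosb 2 in 51 control cells, so both passed the limit of 50 UMIs only through the MRL/lpr library.

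**Figure D3:**
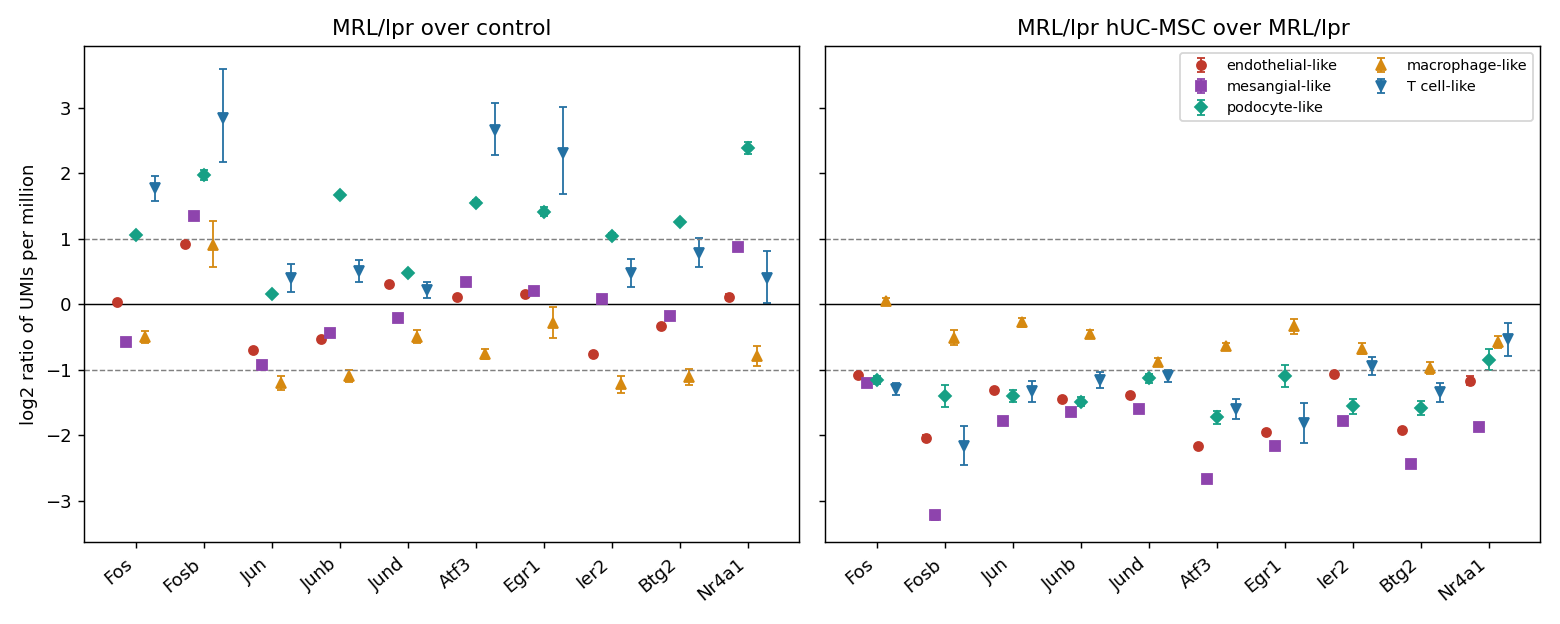
Log2 ratio of CPM (y) for each of the 10 genes (x) in 5 classes (color and shape), for MRL/lpr over control (left) and MRL/lpr hUC-MSC over MRL/lpr (right), with exact 95% intervals for counting error; dashed lines mark 2-fold. On the right, the points of endothelial-like and mesangial-like cells all lie below -1, whereas macrophage-like cells lie between -0.97 and 0.05.

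The second comparison is that of treated with untreated MRL/lpr mice. It shares the MRL/lpr library with the first, so the 2 are not independent. All 10 genes were 2-fold or more lower in treated mice in endothelial-like cells, where 3.2% of 12891 genes were, and in mesangial-like cells, where 4.05% of 12306 genes were. The members' median log2 ratio was -1.41 in endothelial-like and -1.83 in mesangial-like cells, and that of all genes was 0.12 and 0.13. The summed ratio was -1.46 (-1.46 to -1.45) in endothelial-like cells and -1.78 (-1.79 to -1.77) in mesangial-like cells. All 10 stayed below 0 under each of the other settings in both classes, but the count past 2-fold was 9 in endothelial-like cells over thinned cells, where Nr4a1 stood at -0.94, and 9 in mesangial-like cells with at most 5% ribosomal UMIs, where Fos stood at -0.83. The gate of 4 times the free RNA moved the endothelial-like sum by over 1.5-fold, to -2.04, and with it Fos from -1.09 to -1.76, Fosb from -2.04 to -2.90, Jun from -1.32 to -1.90, Atf3 from -2.16 to -3.05 and Egr1 from -1.95 to -2.74.

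The same direction was seen in smaller classes. In smooth muscle and renin-like cells 10 of 10 genes were 2-fold or more lower in 115 treated than in 79 untreated cells, against 4% of 2975 genes, with the sum at 9430 and 26158 CPM. In podocyte-like cells 9 were, against 2.44% of 9674 genes, Nr4a1 being the exception at -0.85. In collecting duct-like cells 6 were, against 1.78% of 6420 genes, and in T cell-like cells 8 were, against 6.03% of 7309 genes, Ier2 and Nr4a1 being the exceptions.

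Myeloid and proximal tubule-like cells differed less. In macrophage-like cells 0 members were 2-fold or more lower, against 3.72% of 10232 genes, and Fos was at 1332 CPM in untreated and 1376 CPM in treated mice. In neutrophil-like cells 1 member, Fosb, was, at 345 and 143 CPM, against 2.17% of 5206 genes. In proximal tubule-like cells 0 were, against 5.8% of 8093 genes, and in NK cell-like cells 0 were, against 2.44% of 1309 genes. The median ratio over the members was -0.54 in macrophage-like, -0.76 in neutrophil-like, -0.47 in proximal tubule-like and -0.56 in NK cell-like cells. Whether the classes differ in their ratio was not tested, since cells of 1 library are not replicates.

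The third comparison, of treated with control mice, shares a library with each of the others, and its direction was not the same in every class. All 10 genes were 2-fold or more lower in endothelial-like cells, against 5.82% of 13137 genes, and 9 were in mesangial-like cells, against 6.79% of 12536 genes, Nr4a1 standing at -0.99. In macrophage-like cells 7 were, against 15.7% of 8320 genes, and in collecting duct-like cells Jun, Junb and Ier2 were, against 4.63% of 6544 genes. In podocyte-like cells 1 member, Nr4a1, was 2-fold or more higher and 1, Jun, was lower, against 9.45% and 8.63% of 10880 genes. In proximal tubule-like cells Fosb and Egr1 were higher and 0 of the 9 members tested were lower, against 9.75% and 8.75% of 3373 genes. Fosb there had 34 UMIs in control and 86 in treated cells, and Egr1 37 and 94. Both thus passed the limit on UMIs only through the treated library. The sum in these cells stood at 3070 CPM in control and 3111 CPM in treated mice. In T cell-like cells Atf3 was higher and 0 were lower, against 9.8% and 10.2% of 4735 genes. In NK cell-like cells, of 8 members tested, Atf3 was higher and Jund, Ier2, Btg2 and Nr4a1 were lower, against 6.38% and 13.3% of 847 genes. Atf3 had 38 UMIs in control and 86 in treated cells, and Nr4a1 50 and 18. Each of these thus passed the limit of 50 UMIs only through the library where it was higher. The treated library also differed from both others in depth, at a median of 3500 UMIs in endothelial-like cells against 4347 in control and 3997.5 in MRL/lpr mice.

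The difference was spread over the cells. With each endothelial-like cell thinned to 1000 UMIs, the 10 genes made up 3.6% of UMIs in the median control cell, 3.1% in the median MRL/lpr cell and 0.9% in the median treated cell. The cell at the 10th percentile held 0.6%, 1.1% and 0.2%, and the cell at the 90th percentile 5.7%, 4.7% and 2.1%. The treated cells at the 90th percentile thus held less than the median cell of either other library. In mesangial-like cells the medians were 3.1%, 2.8% and 0.7%, and 87.6%, 97.6% and 46.1% of cells had UMIs of at least 5 of the 10 genes.

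**Figure D4:**
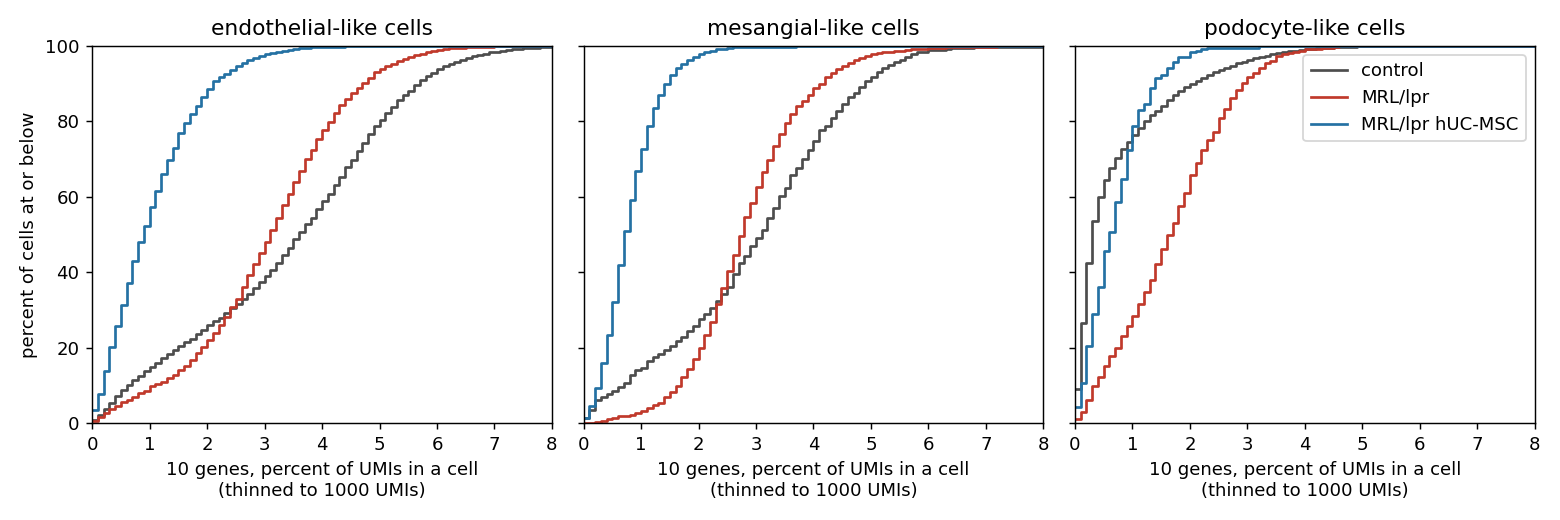
Percent of cells (y) in which the 10 genes made up at most the percent of UMIs on the x axis, after thinning each cell to 1000 UMIs, by class (panels) and library (color). Medians in endothelial-like cells are 3.6%, 3.1% and 0.9% for control, MRL/lpr and treated mice, and in podocyte-like cells 0.3%, 1.7% and 0.6%.

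Members were found in the same cells. In thinned endothelial-like cells of control mice, Atf3 had a UMI in 83.4% of the 4874 cells with a Fos UMI and in 16.8% of the 501 cells without, and Egr1 in 61.5% and 12.2%. Over all 90 ordered pairs of members the ratio of these shares was above 1 in each pair in endothelial-like, mesangial-like and podocyte-like cells of control mice, with medians of 1.67, 1.56 and 2.94. In MRL/lpr mice it was above 1 in all 90 pairs of each class too, with medians of 1.39, 1.09 and 1.38. In treated mice it was above 1 in 82, 86 and 78 pairs, with medians of 1.43, 1.22 and 1.31. Cells of 1 library share free RNA, so part of these counts may come together without being made by the cell, and that part was not tested.

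Depth and mitochondrial share moved with the level within a library. In endothelial-like cells of control mice the 10 genes stood at 14472 CPM in 125 cells of 1000 to under 2000 UMIs and at 37262 CPM in 782 cells of 8000 or more. In cells with 1% to under 2% mitochondrial UMIs they stood at 42520 CPM, and in cells with 4% or more at 25367 CPM. In treated mice the same 4 groups of cells were at 7735, 12324, 12996 and 8114 CPM, and in MRL/lpr mice at 20347, 32329, 33651 and 24172 CPM. Treated cells were thus lower than MRL/lpr cells in each of these ranges. Of control cells, those below 2000 UMIs stood under the MRL/lpr cells of the same depth, unlike those of 4000 UMIs or more. Mesangial-like cells differed more in depth, at medians of 10302.5 UMIs in control, 3931 in MRL/lpr and 4534 in treated mice. Their levels were not split by depth.

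**Figure D5:**
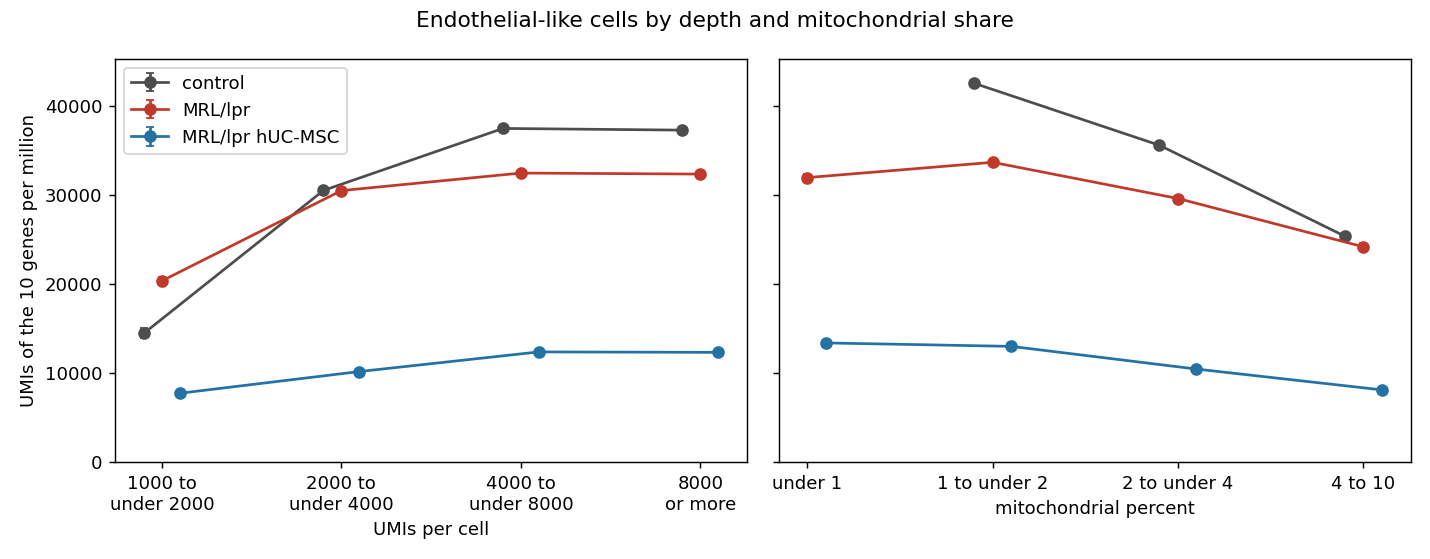
Summed CPM of the 10 genes (y) in endothelial-like cells by UMIs per cell (left) and by mitochondrial percent (right), with a line for each library and exact Poisson 95% intervals. The lowest mitochondrial range is left out for control mice, where it held too few cells. Treated cells lie lowest in every range, between 7735 and 13382 CPM.

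Endothelial-like cells with a UMI of Cxcl10, an interferon-induced chemokine that the study follows, held more of the 10 genes than those without, at 41438 against 32655 CPM in control, 33506 against 29908 in MRL/lpr and 13954 against 10746 in treated mice. Cells with a Cxcl10 UMI were also deeper, at medians of 5167, 5327 and 5402 UMIs against 4128.5, 3633.5 and 3217.

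The 10 genes whose level most resembled that of the summed members were ranked over 30 units of a class in a library with at least 50 cells, by Pearson correlation of log2(CPM + 1) over 12260 genes. Ppp1r15a led at 0.88, followed by Maff at 0.86, Irf1 at 0.85, Socs3 at 0.85, Csrnp1 at 0.83, Dusp1 at 0.81, Dnajb1 and Rtn2 at 0.80, and Bicd2 and Gm39090 at 0.79. These units share libraries, depth and free RNA, so the values describe likeness only. Among pairs of members the correlation ran from 0.36 for Jun with Nr4a1 to 0.95 for Fos with Egr1, with a median of 0.79 over 45 pairs. Of the first 100 of the 12260 genes, 8 were of the 34 other immediate-early genes and 3 of the 13 other AP-1 and ATF genes. Of the 8 heat shock genes 3 were among them, with 0 of the 15 SRF and MAP kinase genes and 0 of the 7 kidney injury genes ranked.

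Other genes of the pathway are given as counts beside the share of all genes, with no test between lists. In macrophage-like cells 0 of 34 other immediate-early genes were past 2-fold between treated and untreated mice. Of all genes 3.72% were lower there and 1.55% higher. Of 34 other immediate-early genes in mesangial-like cells, 20 were 2-fold or more lower in treated than in untreated mice and 0 higher, against 4.05% and 2.67% of 12306 genes, with a median of -1.17. Among them Ier3, which limits cell death, went from 1413 to 243 CPM, Gadd45b from 772 to 146 CPM, and Ppp1r15a, which restores translation after stress, from 398 to 76.8 CPM. In endothelial-like cells 12 of the 34 were 2-fold or more lower and 0 higher, against 3.2% and 3.77% of 12891 genes, with a median of -0.78, among them Zfp36, which shortens the life of cytokine messages, from 1703 to 598 CPM, and Csrnp1 from 246 to 72.4 CPM. Between MRL/lpr and control mice 11 of the 34 were 2-fold or more higher in mesangial-like cells and 1 lower, against 8.49% and 4.59%. In endothelial-like cells 4 were higher and 1 lower, against 8.95% and 4.8%. In podocyte-like cells 19 of 32 tested were higher, against 8.25%, and in T cell-like cells 14 of 32, against 12.3%, with 0 lower. In macrophage-like cells 3 were higher and 10 lower, against 14.9% and 10.4%. T cell-like cells held 384167 UMIs in control and 2016021 in MRL/lpr mice, and macrophage-like cells 570365 and 6845125. In both classes a scarce gene could thus pass the limit on UMIs only through the MRL/lpr library. How many of the genes counted as higher there did so was not tested.

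The 13 other AP-1 and ATF genes were 2-fold or more lower for 2 in endothelial-like cells and for 4 of the 12 tested in mesangial-like cells, against 3.2% and 4.05% of all genes. In the latter Maff, a small Maf protein, was at 99.6 CPM in untreated and 18.2 CPM in treated mice, and Fosl2, a slower Fos family member, at 234 and 78.3 CPM. Of 15 SRF and MAP kinase genes, which act upstream, 1 was 2-fold or more lower in each of the 2 classes, against the same shares, with medians of 0.17 in both beside 0.12 and 0.13 for all genes. That gene was Map3k8 in both classes, a kinase of the NF-kB and ERK pathways, at 195 and 84.2 CPM in endothelial-like and 111 and 46.0 CPM in mesangial-like cells of untreated and treated mice.

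Heat shock genes, which rise with protein damage, were 2-fold or more lower in MRL/lpr than in control mice for 8 of 8 in mesangial-like cells, against 4.59% of all genes, and for 0 of 8 in endothelial-like cells, against 4.8%. The medians were -2.32 and -0.55. In mesangial-like cells Hspa1a was at 7028 CPM in control and 1354 CPM in MRL/lpr mice. The median mesangial-like cell held 10302.5 UMIs in control and 3931 in MRL/lpr mice, and the part of depth in this difference was not tested. Between treated and untreated MRL/lpr mice 2 of the 8 were 2-fold or more higher in these cells, Hsph1 at 298 against 105 CPM and Hspa1b at 1257 against 445 CPM, where 2.67% of all genes were, and 0 were lower. In endothelial-like cells 2 were lower in treated mice, Dnajb1 from 967 to 332 CPM and Hspa8 from 3165 to 1421 CPM, with a median of -0.70 over the 8, where 3.2% of all genes were lower.

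The 10 kidney injury genes were tested in part, 1 to 6 of them in each class. Between treated and untreated MRL/lpr mice 0 of 4 tested were past 2-fold in endothelial-like and in mesangial-like cells. The count 2-fold or more higher in treated mice was 2 of 4 in podocyte-like cells (2.43% of all genes), 2 of 3 in smooth muscle and renin-like (5.61%), 2 of 4 in proximal tubule-like (2.36%), 1 of 6 in collecting duct-like (1.6%) and 1 of 3 in macrophage-like cells (1.55%). Those lower were Vcam1 in macrophage-like cells, an adhesion molecule, and Krt18 in T cell-like cells, a keratin, against 3.72% and 6.03% of all genes, and in neutrophil-like and NK cell-like cells 0 were past 2-fold. Between MRL/lpr and control mice 4 of 6 tested were 2-fold or more higher in endothelial-like cells, 3 of 4 in mesangial-like and 4 of 4 in podocyte-like cells, against 8.95%, 8.49% and 8.25% of all genes, and 0 were lower there. In proximal tubule-like cells 2 of 4 were higher and 1, Havcr1, was lower, against 16.6% and 2.73% of all genes, with 42 Havcr1 UMIs in MRL/lpr and 44 in control mice. In the remaining classes 3 of 6 were higher in collecting duct-like, 2 of 3 in macrophage-like, 2 of 3 in T cell-like and 1 of 1 in NK cell-like cells, against 6.38%, 14.9%, 12.3% and 7.26% of all genes, and 0 were lower. Several of these genes passed the limit of 50 UMIs only through the library where they were high, as Timp1 did in podocyte-like cells, with 27 UMIs in untreated and 68 in treated mice.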

How the data were processed

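Cells of isolated mouse glomeruli were captured in droplets and sequenced, as 1 library for each of 3 groups. The authors deposited UMI counts for every gene and barcode, before cells were called, made with Cell Ranger; the file headers name another version than the methods. The submitters' processing notes also name STAR and mm10. Barcodes with at least 1000 UMIs and at most 10% mitochondrial UMIs were used.

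A barcode took a class if its marker UMIs were at least 3, from at least 2 markers, at least 2 times the number expected from free RNA (barcodes of 1 to 100 UMIs), and improbable from free RNA alone (Poisson probability under 0.001). Where a second class passed, the first had to lead 4-fold. The Poisson limit was added after values of the 10 genes had been seen, because the gate as first written gave a class to barcodes of free RNA alone when tested on simulated data; results without it are given with the other alternatives. No doublet caller was run. Barcodes where a second class passed and the first did not lead 4-fold were left out. Erythroid-like barcodes entered no comparison, since in treated mice haemoglobin made up 29.3% of their UMIs.

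A level is the sum of a gene's UMIs over a class for each 1000000 UMIs (CPM), with exact Poisson intervals, and ratios carry exact conditional binomial intervals. Past 2-fold refers to genes with at least 50 UMIs over both libraries. Genes named are the 10 members, up to 5 genes of each list past 2-fold, the 10 most alike, and Cxcl10 because the study follows it. The genes and lists were chosen with earlier results of these data known. Depth limits precision through the UMIs behind each value, and the level itself moved with depth in endothelial-like cells. The tools were numpy 2.4.6, pandas 2.3.3, scipy 1.17.1 and matplotlib 3.10.9 under Python 3.11.15.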

Additional observations from a re-analysis of the deposited data

Results flagged for a closer look

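The summed level of the 10 genes was lower in MRL/lpr than in control mice in endothelial-like cells, at a log2 ratio of -0.17, and higher in 4 other classes. These were podocyte-like cells at 1.02, T cell-like cells at 0.86, proximal tubule-like cells at 0.36 and collecting duct-like cells at 0.19. Each stands here because its ratio had the opposite sign to that of endothelial-like cells under the same comparison. With 1 library in a group the difference between classes was not tested, and the sign in endothelial-like cells turned under a stricter marker gate, to 0.14.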

How the results depend on the processing

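The 4 summed log2 ratios were recomputed under 9 or 10 other settings. MRL/lpr over control, in endothelial-like cells, was -0.17 as reported and -0.167 with at least 2000 UMIs, 0.136 with a gate of 4 times free RNA (1 member 2-fold higher in place of 0), -0.197 centred on the median gene, -0.110 with free RNA subtracted, -0.164 over thinned cells and -0.133 without mitochondrial, ribosomal and haemoglobin genes in the total. In mesangial-like cells it was -0.24 as reported, 0.094 with 200 to 3000 genes, -0.222 with the stricter gate and with no second class, -0.176 with free RNA subtracted, -0.059 over thinned cells, 0.016 with at most 5% ribosomal UMIs and -0.226 without those genes; 2 members in place of 1 were 2-fold higher with 200 to 3000 genes, over thinned cells and with the ribosomal limit. Treated over MRL/lpr, in endothelial-like cells, was -1.46 as reported and -1.434 (2000 UMIs), -1.492 (200 to 3000 genes), -2.043 (stricter gate), -1.573 (centred), -1.533 (free RNA), -1.529 (thinned) and -1.443 (without those genes). In mesangial-like cells it was -1.78 as reported and -1.859 (200 to 3000 genes), -1.820 (stricter gate), -1.905 (centred), -1.894 (free RNA), -1.804 (thinned), -1.745 (ribosomal limit) and -1.751 (without those genes). The cause was not tested. Members 2-fold or more lower numbered 9 in place of 10 in endothelial-like cells when thinned and in mesangial-like cells with the ribosomal limit. The ratio of each member kept its sign in 90 of 90 and 100 of 100 values for treated over MRL/lpr, and in 88 of 90 and 96 of 100 for MRL/lpr over control, the exceptions being Fos and Btg2 in endothelial-like and Jund and Btg2 in mesangial-like cells.

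The gate as first written had no Poisson limit, which was added after values of the 10 genes had been seen. That first gate gave 0, 1 and 8 members 2-fold higher in endothelial-like, mesangial-like and podocyte-like cells for MRL/lpr over control, as reported. For treated over MRL/lpr it gave 10, 10 and 9 lower there, also as reported. It kept 2293 treated macrophage-like cells in place of 1200. For MRL/lpr over control it gave 3 in place of 4 macrophage members lower and 1 in place of 0 higher. For treated over control it gave 6 in place of 7 macrophage members lower and 2 in place of 1 T cell members higher. For treated over MRL/lpr it gave 9 in place of 10 members lower in smooth muscle and renin-like cells. It moved the proximal tubule-like ratio of MRL/lpr over control from 0.36 to 0.56, with 5 in place of 3 members higher. With the Poisson limit 16.6% of 7950 genes were higher there, and no share of all genes was computed without it. The counts of this alternative were made without the limit on UMIs of a gene. Counted so with the Poisson limit, 3 members were higher in treated than in control proximal tubule-like cells, where 2 were reported. The ribosomal limit was not run for endothelial-like cells, where it left 34 to 63 cells in a library. No paired analysis was possible because each group has 1 library, which also limits every comparison here to a description of 3 libraries.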
